A study of Homo sapiens with 14 samples.

Results

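Messages whose ribosomes were recovered with tagged EMC10, part of the ER membrane protein complex (EMC), were compared with the messages in the material that went onto the beads. The comparison takes 6 of the 14 libraries of a selective ribosome profiling study. It uses the 3 libraries of the EMC10 immunoprecipitate (IP) and the 3 libraries of its input, matched by replicate number. All 19440 gene symbols in the count tables were considered, and 9468 had enough counts to be tested. The EMC10 row itself is given apart, because the bait message dominated each IP.

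Both groups came from Flp-In T-REx 293 cells, a human embryonic kidney line with a single docking site for a transgene, which expressed 3Flag-EMC10 under doxycycline control. The genotype label names no knockout of EMC10 in this line, so the endogenous gene may be expressed as well. No label names the transgene's promoter or says whether the line is 1 clone. Cells were induced with 0.5 to 1 ng/mL doxycycline for 72 h and collected in cycloheximide, which holds ribosomes in place. The IP is what anti-Flag beads held from detergent-solubilized, nuclease-treated microsomes, and the input is that same microsome extract before the beads. The input is thus a preparation of microsomes and not of whole cells. Fragments shielded by ribosomes were then sequenced from both. No IP from cells without a tagged bait was analysed here, so material held through EMC10 and other material on the beads cannot be told apart.

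The endoplasmic reticulum (ER) is where most membrane and secreted proteins are made. Ribosomes translating them dock on the Sec61 channel, and signal sequences and membrane segments leave the ribosome into or across the lipid bilayer. The EMC is an insertase of the ER membrane that places certain membrane segments, among them the tail anchors of some small proteins and the first segments of many G protein-coupled receptors, and it is also known to bind multi-pass proteins during their synthesis. EMC10 is a single-pass subunit whose folded domain faces the ER lumen, beside the large luminal parts of EMC1 and EMC7.

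The 3 IP libraries held 1335235, 1736170 and 1784496 counts on genes, and the 3 inputs held 3133938, 3371471 and 2907065. Without the EMC10 row the IPs held 986072 to 1341442 counts. Replicates correlated at r = 0.944 to 0.955 in IPs and at 0.986 in each pair of inputs (log scale, across genes, which are not independent replicates). Of 6 markers set for the 293 line, CDH2 and VIM stood above 1000 CPM (counts scaled to a fixed library size) in every input, NEFL at 79.8 to 123 CPM and LIN28B at 5.36 to 10.2 CPM. PAX2 (1 to 5 counts per input) and NEFM (1 count in all) were near 0. Of 6 markers of other cell types, PTPRC, CD3E, ALB, PECAM1 and ADIPOQ had 0 counts and HBB had 1 count.

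The bait message checked the labels first. EMC10 (chromosome 19, 50476507 to 50490871, GRCh38) took 26.15%, 24.63% and 24.83% of the counts on genes in IP 1, 2 and 3, against 0.312%, 0.321% and 0.393% in inputs 1, 2 and 3. The share was 73.6-fold higher in IPs than in inputs, and the log2 change was 7.31 ± 0.18 in a fit that kept this row (adjusted p = 1.9e-26). Every IP lay far above every input. Tagged and endogenous messages share these counts. In the inputs of the EMC7 line, which carry no EMC10 transgene, the EMC10 share was 0.0335% and 0.0424%. Footprints count ribosomes on a message and are no measure of how much EMC10 protein the cells held.

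Across the other messages, many genes changed between IP and input. Values below are CPM scaled by TMM, a method that sets the middle of the genes near no change, with the EMC10 row left out. Changes are log2 of IP over input ± SE, and a gene is said to have risen or fallen where its adjusted p was under 0.05 (edgeR's quasi-likelihood test, Benjamini-Hochberg over the 9468 genes). By this measure 1893 genes (20.0%) rose in IPs and 1322 genes (14.0%) fell, which together is 34.0% of those tested. Of the 1893 that rose, 1887 were higher in the IP in all 3 pairs, and of the 1322 that fell, 1315 were lower in all 3. Pairing IP and input by replicate number gave 2045 rises and 1786 falls, with 1888 and 1321 genes shared with the unpaired calls. A rise says that a message took a larger share of the footprints on the beads than in the extract. More copies of a message with ribosomes on the beads and more ribosomes per copy cannot be told apart.

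The rises reached much further than the falls. The 5th and 95th percentiles of the log2 changes were -1.03 and 2.07. Rises above 2 on the log2 scale (4-fold) numbered 501 and rises above 3 (8-fold) numbered 147, whereas 22 falls passed -2 and 269 passed -1. How many genes count as lower depends on where the zero is put. The median change of all genes was -0.17 with TMM and -0.09 with DESeq2, against -0.55 where secreted and luminal messages set the scale and -0.87 for library size alone. These settings gave 1893 rises and 1322 falls, 1910 and 743, 1434 and 3456, and 1120 and 5662, in that order. The DESeq2 counts come from its own test as well as its own scaling. Groups of genes are therefore described by their median minus the median of all genes, which moved by at most 0.036 between the 4 scalings over all lists and classes. A single change near 0 can turn sign with the scaling.

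**Figure D1:**
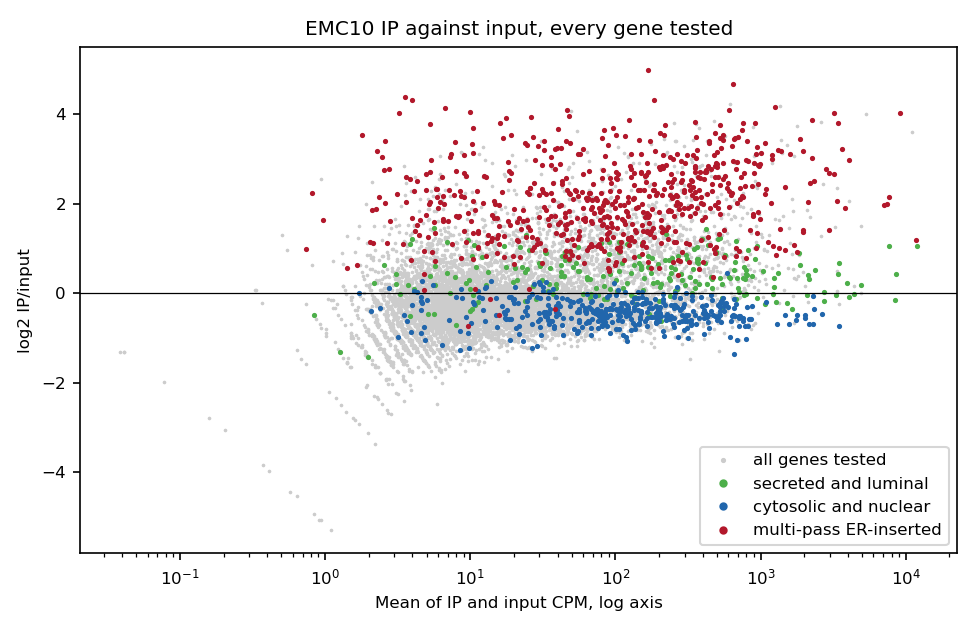
Each point is 1 of the 9468 tested genes, with the mean CPM of the 6 EMC10-line libraries on a log x axis and log2 of IP over input on the y axis. Multi-pass messages (red) lie above 0 at nearly every level, secreted and luminal messages (green) spread around and above 0, and cytosolic and nuclear messages (blue) sit in a band just below it. The lines of points at the lower left are genes with few or no counts in these 6 libraries.

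IP and input libraries differed in what kind of protein the footprints encoded. Gene lists were grouped into 8 classes by how the protein meets a membrane. Multi-pass proteins inserted at the ER took 29.0%, 29.9% and 29.8% of the counts in IPs 1 to 3, against 10.2%, 10.8% and 11.2% in inputs 1 to 3. Cytosolic and nuclear proteins took 6.73%, 6.42% and 5.98% in IPs, against 15.4%, 14.1% and 13.8% in inputs. The IPs of both classes lay outside the range of the inputs, at 2.76 and 0.442 times the input share.

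Other classes moved less as shares of counts. The ER insertion machinery took 5.62% ± 0.10 in IPs, against 2.72% ± 0.14 in inputs (SD, n = 3 each). Secreted and luminal proteins took 11.9% ± 0.6 in IPs and 14.9% ± 0.6 in inputs, and type I single-pass proteins took 4.96% ± 0.10 in IPs and 5.68% ± 0.26 in inputs. The mitochondrial class took 0.597% ± 0.022 in IPs and 1.05% ± 0.02 in inputs. None of these pairs of ranges overlapped, but 3 samples against 3 cannot give a two-sided exact permutation p below 0.1. Shares add up to a whole and weight each message by its counts. A class can therefore lose share while most of its messages rose against the middle gene, as the type I class did. Under library size alone, the scale of the shares, the median change of that class was 0.13, with 41 messages risen and 34 fallen. Messages in no list took 39.6% of IP counts and 49.4% of input counts.

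**Figure D2:**
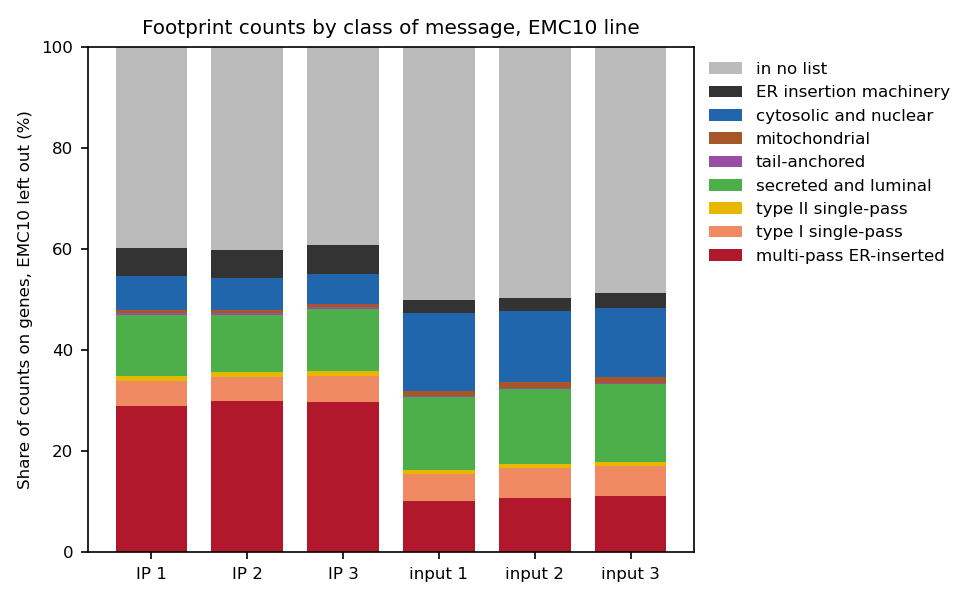
Stacked bars give the percent of counts on genes, EMC10 left out, by class of message for IP 1 to 3 and then input 1 to 3. The multi-pass block fills 29.0% to 29.9% of the IP bars and 10.2% to 11.2% of the input bars, and the cytosolic and nuclear block is smaller in every IP bar than in any input bar.

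Multi-pass proteins, which thread the membrane several times, made up the largest share of the strong rises. Of 1646 multi-pass members counted, 638 could be tested, and 608 of them rose and 0 fell (95.3%, against 20.0% of all genes). A thinly counted message could pass the count filter through its IP counts alone, which favours rises among those tested. Without that filter 630 of 958 members rose and 0 fell, against 1913 rises and 1318 falls among 14396 genes. Their median stood 2.21 above that of all genes. The median of the 3 pairs taken one at a time stood 2.18, 2.06 and 2.08 above it, so that the pairs differed little. Of the 501 rises above 2 on the log2 scale, 328 (65.5%) were multi-pass members, 163 were in no list, and 0 were type I single-pass, secreted or luminal. Among the 147 above 3, 104 (70.7%) were multi-pass members. Library size alone, the least favourable scaling, still gave 522 rises and 6 falls in this class.

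The largest of the rises that met the rule for named genes was in an ion channel. CACNA1C, the pore of an L-type calcium channel (chromosome 12, 1970780 to 2697950), had 313, 406 and 263 CPM in IPs 1 to 3, against 7.87, 10.7 and 12.5 CPM in inputs 1 to 3. It rose by 4.98 ± 0.27 (31.6-fold, adjusted p = 5.34e-13), with every IP far above every input. The gene overlaps DCP1B in the annotation. The related pores CACNA1D and CACNA1B rose by 4.08 ± 0.21 and 3.95 ± 0.25. ANO10, an anoctamin of the ER membrane, had 1176, 1094 and 1182 CPM in IPs, against 61.0, 67.2 and 73.6 CPM in inputs, and rose by 4.10 ± 0.15. PIEZO1, a stretch-gated channel with a very large number of membrane segments, rose by 3.18 ± 0.16. Of 97 channel subunits tested 91 rose and 0 fell, and their median stood 2.49 above all genes. At the low end among well-counted members was CHRNA5, a nicotinic receptor subunit, which rose by 0.69 ± 0.15.

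Pumps and transporters moved as a block. All 21 tested ABC transporters, which move solutes with ATP, rose (median 2.60 above all genes). ABCC4, an exporter of organic anions (chromosome 13, 95019835 to 95301451), had 6018, 5757 and 6494 CPM in IPs, against 333, 383 and 403 CPM in inputs, a rise of 4.03 ± 0.14 (16.3-fold, adjusted p = 1.22e-22). Of 27 P-type pumps 25 rose, with a median 2.78 above all genes that was the highest of the 29 lists. The lipid flippase ATP11A rose by 3.57 ± 0.19 and the ER calcium pump ATP2A2 by 1.96 ± 0.12.

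Of 182 solute carriers 175 rose and 0 fell, with a median 2.48 above all genes. SLC30A5, a zinc transporter of the early secretory pathway (chromosome 5, 69094014 to 69131069), had 2130, 2481 and 2553 CPM in IPs, against 123, 134 and 147 CPM in inputs, and rose by 4.15 ± 0.16 (17.7-fold, adjusted p = 1.56e-21). SLC45A1, a sugar transporter, and SLC9A3, a sodium-proton exchanger, rose by 4.13 ± 0.52 and 4.04 ± 0.49, but from 1 to 4 and 2 to 7 counts per input. Both have wide errors. SLC1A5, a glutamine transporter, rose by 2.14 ± 0.14, and the zinc importer SLC39A10 was lowest among well-counted carriers, at 0.81 ± 0.16.

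Receptors rose too, by less. Of 32 class A G protein-coupled receptors, most of them made without a cleaved signal peptide, 31 rose and 0 fell, and the median stood 1.79 above all genes. Without the count filter 39 of 126 rose and 0 fell. F2RL1, a protease-activated receptor, had 252, 267 and 283 CPM in IPs, against 85.4, 98.2 and 108 CPM in inputs (1.46 ± 0.16, adjusted p = 2.07e-09). The IPs did not overlap the inputs. BDKRB2, the bradykinin receptor, rose by 4.39 ± 0.75 from 3 counts in the 3 inputs together, with 10, 4 and 4 counts in the IPs, so its size is poorly fixed. Of 40 multi-pass receptors and other proteins made with a signal peptide 37 rose (median 1.45 above all genes), among them the Wnt receptor FZD9 at 2.36 ± 0.25 and the Golgi protein TM9SF2 at 1.07 ± 0.13. Tetraspanins, claudins and related 4-segment proteins had the lowest median of the multi-pass lists, 1.28 above all genes, with 52 of 54 risen. Their largest rise was SYNGR1, a synaptic vesicle protein, at 2.31 ± 0.16, and the abundant CD63 and CD81 stood at 1.01 ± 0.14 and 0.91 ± 0.13.

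Enzymes that build lipids and glycans inside the ER membrane rose almost without exception. All 33 phospholipid and triglyceride enzymes rose (median 2.47 above all genes). PTDSS1, a phosphatidylserine synthase, had 4193, 3893 and 4693 CPM in IPs, against 265, 275 and 335 CPM in inputs (3.87 ± 0.14, adjusted p = 3.81e-22). All 40 members of the sterol and fatty acid list rose (median 2.03 above), led by the cholesterol acyltransferase SOAT1 at 3.11 ± 0.15. This list is not of enzymes alone, and holds the retention protein INSIG1 at 0.73 ± 0.19. The elongase ELOVL5 rose by 2.98 ± 0.14 and LBR, a sterol reductase of the inner nuclear membrane, by 1.89 ± 0.13.

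In the GPI anchor and N-glycan list 49 of 53 rose and 0 fell (median 2.41 above all genes). PIGV, a mannosyltransferase of GPI anchor synthesis (chromosome 1, 26787054 to 26800659), had 335, 376 and 345 CPM in IPs, against 18.4, 18.2 and 16.5 CPM in inputs (4.31 ± 0.23, 19.8-fold, adjusted p = 1.23e-15). TMTC3, an O-mannosyltransferase, rose by 3.80 ± 0.14 and the glucosyltransferase ALG8 by 3.17 ± 0.14. Of 20 DHHC palmitoyltransferases, which attach fatty acids to proteins, 19 rose and 0 fell, with ZDHHC16 highest at 2.67 ± 0.17.

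Ubiquitin ligases and proteases embedded in the ER membrane completed the class, with 35 of 39 risen, 0 fallen and a median 2.06 above all genes. RNF26, an ER ligase with several membrane segments (chromosome 11, 119334527 to 119337309), had 1218, 1254 and 1239 CPM in IPs, against 51.2, 46.0 and 48.6 CPM in inputs. It rose by 4.67 ± 0.16 (25.4-fold, adjusted p = 1.22e-22), with little spread among the replicates of either group. MARCHF6, a ligase of ER-associated degradation, had 16863, 16651 and 17853 CPM in IPs, against 947, 1083 and 1148 CPM in inputs (4.01 ± 0.14). HM13, the signal peptide peptidase, rose by 1.38 ± 0.13.

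The 30 multi-pass members that did not pass the test were few and mostly thinly counted: 18 of them had under 10 CPM in both fractions, and 26 of the 30 had a change above 0. The 4 below 0 were DHDDS (-0.74 ± 0.34), BSDC1 (-0.49 ± 0.31), ALG13 (-0.35 ± 0.20) and RNF170 (-0.13 ± 0.28), named after their values were seen. DHDDS and ALG13 act at the ER membrane without being multi-pass proteins themselves, and stand in the list by pathway. So does SEL1L, a single-pass partner of an ER ligase, at 0.40 ± 0.17 (adjusted p = 0.0673, and -0.30 under library size alone). Such members also occur among the 608 that rose. NCSTN, a single-pass subunit of gamma-secretase, is counted there at 0.36 ± 0.14 (adjusted p = 0.0395, and -0.34 under library size alone). The counts of this class are thus of list members, which are not all multi-pass proteins.

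**Figure D3:**
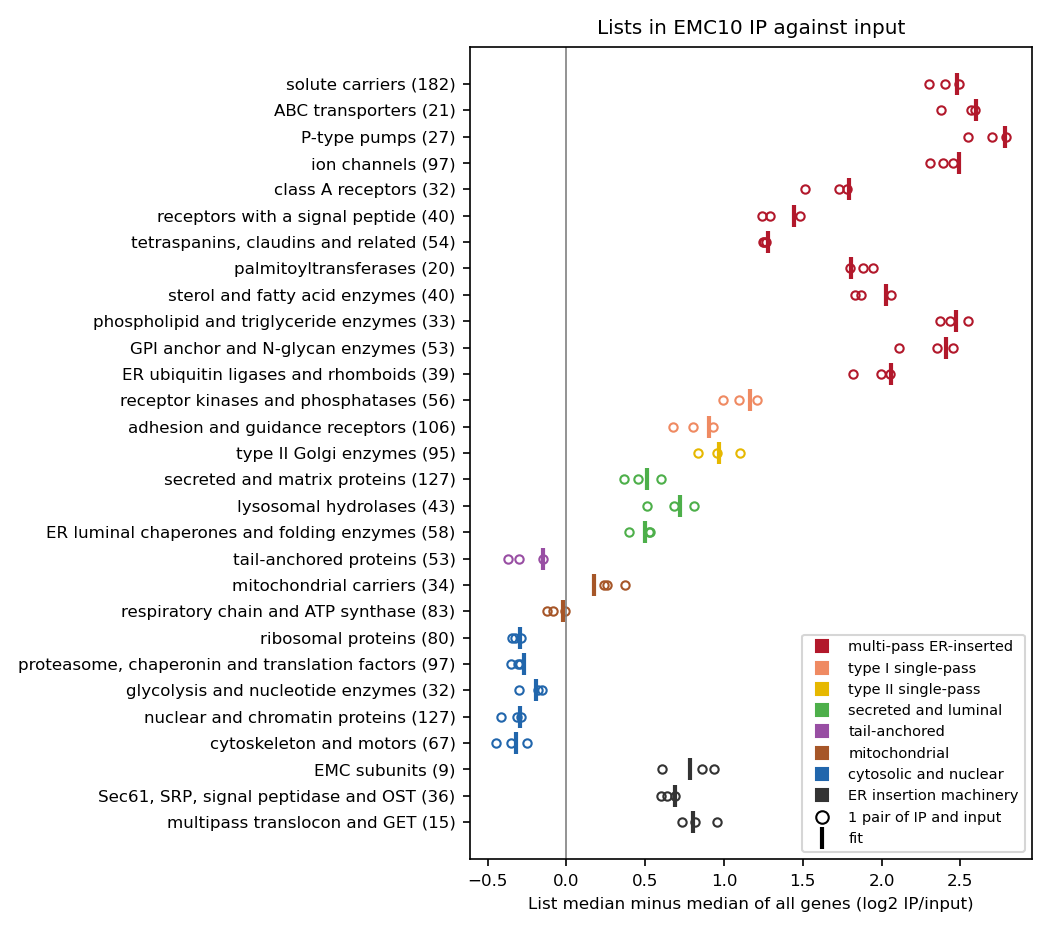
For each of the 29 lists (number of tested members in brackets) the vertical tick is the median log2 of IP over input minus the median of all genes, and the 3 circles are the same for the 3 pairs of IP and input. All 12 multi-pass lists (red) lie between 1.28 and 2.78, the single-pass, secreted and luminal lists between 0.50 and 1.17, and the 5 cytosolic and nuclear lists (blue) between -0.32 and -0.19.

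Single-pass proteins rose by less. Of 162 type I proteins, which carry a signal peptide and 1 membrane segment, 112 rose (69.1%, against 20.0% of all genes). None fell, against 14.0% of all genes, and the median stood 1.00 above all genes. Under library size alone, however, 41 rose and 34 fell. Receptor kinases and phosphatases stood at 1.17 (49 of 56 risen) and adhesion and guidance receptors at 0.90 (63 of 106 risen). RET, a receptor kinase, rose by 1.64 ± 0.31. PLXNA3, a semaphorin receptor, had 202, 171 and 187 CPM in IPs, against 62.5, 63.5 and 58.8 CPM in inputs (1.59 ± 0.18, adjusted p = 1.6e-09), and it overlaps LAGE3 in the annotation. APP, the amyloid precursor, showed no separation, with 4501, 5022 and 5352 CPM in IPs and 4523, 4896 and 5364 CPM in inputs (0.01 ± 0.13, adjusted p = 0.966, and -0.69 under library size alone).

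Type II Golgi enzymes, whose single segment lies near the N terminus and serves as signal and anchor at once, also rose in most cases. Of 95 tested 70 rose (73.7%, against 20.0% of all genes) and 0 fell (against 14.0%), with a median 0.97 above all genes. Under library size alone 19 rose and 5 fell. Their share of the counts was 0.952% ± 0.046 in IPs and 0.817% ± 0.032 in inputs. POMGNT2, which extends O-mannose glycans, stood highest among well-counted members at 1.67 ± 0.16. GALNT2 and B4GAT1, both glycosyltransferases, rose by 0.87 ± 0.14 and 0.88 ± 0.13.

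Secreted and luminal proteins, which pass through the membrane and leave no segment in it, lay lower still. Of 227 tested 97 rose (42.7%, against 20.0% of all genes) and 2 fell (0.88%, against 14.0%), and their median stood 0.54 above all genes. Under library size alone 17 rose and 90 fell. CALR, a calcium-binding chaperone of the ER lumen, had 17596, 12223 and 18629 CPM in IPs, against 7661, 6745 and 9103 CPM in inputs (1.04 ± 0.15, adjusted p = 1.21e-06). HSP90B1, another luminal chaperone, had 7332, 7325 and 9392 CPM in IPs, against 8112, 8702 and 9839 CPM in inputs (-0.15 ± 0.12, adjusted p = 0.376). These 2 chaperones thus differed, one without overlap of its groups and the other with it. GANAB, a glucosidase subunit, and UGGT2, a folding sensor, rose by 1.06 ± 0.12 and 1.21 ± 0.15.

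The lysosomal hydrolases stood at 0.72 above all genes (30 of 43 risen, 69.8%, and 19 without IP 3), the secreted and matrix proteins at 0.51 (40 of 127, 31.5%) and the ER luminal list at 0.50 (28 of 58, 48.3%), against 20.0% of all genes. Under library size alone 8, 4 and 5 rose and 13, 43 and 35 fell, in that order. GUSB, a lysosomal glucuronidase, rose by 1.44 ± 0.15 and SEMA3E, a secreted guidance protein, by 1.14 ± 0.16. The 2 members that fell were both matrix proteins: the collagen chain COL4A5 had 151, 156 and 181 CPM in IPs, against 225, 266 and 259 CPM in inputs (-0.62 ± 0.15, adjusted p = 0.00102), and fibronectin, FN1, stood at -0.36 ± 0.14 (adjusted p = 0.0428). FN1 was not called with DESeq2 (-0.28, adjusted p = 0.198), nor without any 1 of IPs 1, 2 and 3 and inputs 2 and 3 (adjusted p = 0.0504 to 0.189).

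Tail-anchored proteins carry their only membrane segment at the C terminus and are inserted after translation has ended. Of 53 tested 4 rose (7.55%, against 20.0% of all genes) and 6 fell (11.3%, against 14.0%), and the median stood 0.15 below all genes. The falls numbered 1 with DESeq2, 36 under library size alone, and 2 or 3 without input 1, input 3, IP 2 or IP 3. STX7, an endosomal SNARE, had 1.28, 5.69 and 5.07 CPM in IPs, against 13.0, 15.9 and 13.9 CPM in inputs, and fell by 1.74 on the log2 scale (SE 0.39, adjusted p = 4.59e-04). All 3 IPs lay below the inputs, on 1 to 6 counts each. The 4 that rose were STING1 at 3.42 ± 0.17, SQLE at 1.85 ± 0.14, SEC22C at 1.37 ± 0.24 and SEC22A at 1.02 ± 0.22. STING1, an innate immune sensor, is a multi-pass protein, SEC22A and SEC22C have several segments, and SQLE, a sterol enzyme, is held in the ER membrane in another way, so the list's name does not describe them. Without these 4, an exclusion made after their values were seen, 0 of 49 rose and 6 fell.

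Proteins made for mitochondria lay near the middle. Of 34 mitochondrial carriers and related multi-pass proteins, which are imported into mitochondria and do not pass the ER, 7 rose (20.6%, against 20.0% of all genes) and 0 fell, with a median 0.17 above all genes. The abundant carriers SLC25A3 and SLC25A5 stood at -0.10 ± 0.14 and -0.23 ± 0.14 and did not pass. SLC25A44 and MTCH1 rose by 1.39 ± 0.26 and 1.35 ± 0.17. Of 83 respiratory chain and ATP synthase subunits 2 rose (2.41%, against 20.0% of all genes) and 18 fell (21.7%, against 14.0%), with a median 0.02 below all genes. The falls numbered 7 with DESeq2, 76 under library size alone and 8 to 13 without any 1 library, fewest without IP 3. NDUFA9, a complex I subunit, had 423, 372 and 438 CPM in IPs, against 159, 165 and 179 CPM in inputs (1.29 ± 0.14, adjusted p = 1.79e-09), whereas NDUFB4 fell by 1.22 (SE 0.24). UQCRH rose by 0.62 ± 0.22, turned to -0.08 under library size alone, and was not called without input 1, input 3 or IP 2 (adjusted p = 0.0845 to 0.236). Scaling on secreted and luminal lists did not call it either (adjusted p = 0.402).

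Cytosolic and nuclear proteins, made without the ER, fell more often than any other of the 8 classes. Of 403 tested 192 fell (47.6%, against 14.0% of all genes) and 1 rose, and their median stood 0.28 below all genes. DESeq2, which has its own test as well as its own scaling, gave 143 falls and 1 rise. The ribosomal proteins (46 of 80 fallen, and 29 or 30 without input 1 or IP 2), the proteasome, chaperonin and translation factors (43 of 97, and 28 without IP 3), the nuclear and chromatin proteins (63 of 127) and the cytoskeleton and motors (29 of 67) had medians 0.27 to 0.32 below all genes. EEF1A1, which brings aminoacyl-tRNA to the ribosome, had 2959, 2342 and 2520 CPM in IPs, against 4826, 4041 and 4093 CPM in inputs (-0.73 ± 0.17, adjusted p = 0.00135). SPTAN1, a spectrin of the membrane skeleton, had 304, 360 and 451 CPM in IPs, against 765, 946 and 1139 CPM in inputs (-1.35 ± 0.16, adjusted p = 1.25e-08). In both genes every IP lay below every input, as in 26.9% of all genes. The 1 that rose was NUP155, a nuclear pore scaffold, at 0.46 ± 0.13, and it turned to -0.24 under library size alone.

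The largest single falls were on thinly counted messages. CAMSAP2, which caps microtubule minus ends, had 2.56, 0.948 and 2.03 CPM in IPs, against 11.6, 10.5 and 7.96 CPM in inputs (-2.47 ± 0.51, adjusted p = 1.92e-04). The scaffold DLG1 stood at -1.75 ± 0.30. The IPs held 1 or 2 counts each for CAMSAP2 and 3 to 11 for DLG1. Of the 269 falls past -1 on the log2 scale, 252 were in no list and 12 were cytosolic or nuclear members.

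**Figure D4:**
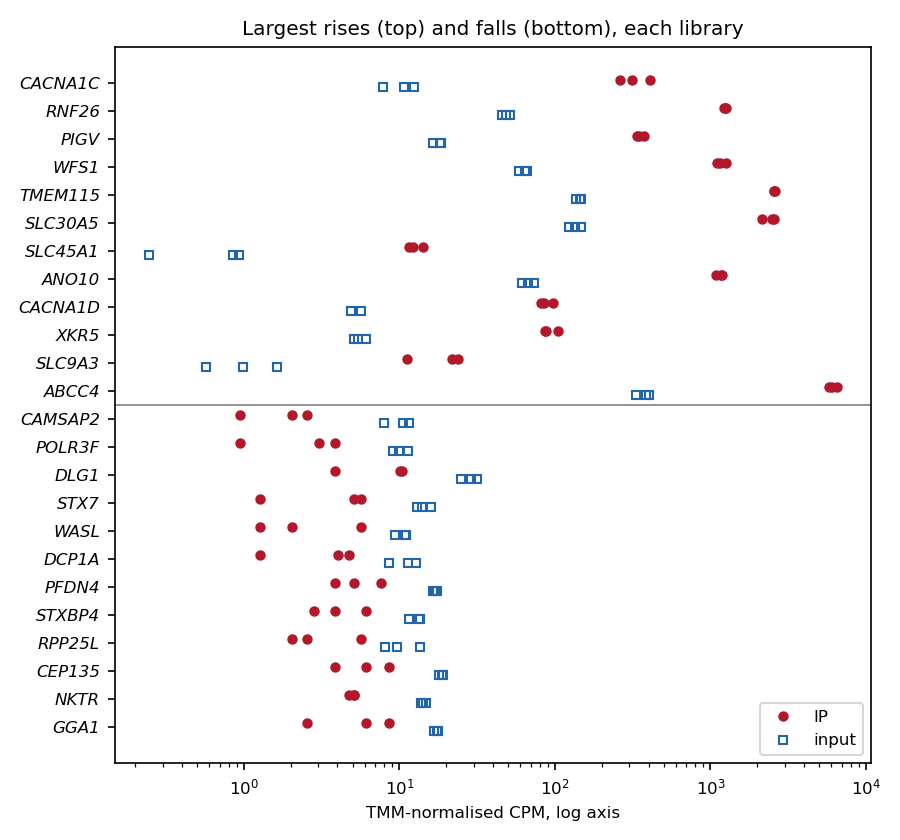
TMM-normalised CPM on a log axis in each of the 3 IPs (filled circles) and 3 inputs (open squares) for the 12 largest rises and, below the line, the 12 largest falls that passed the test, reached 10 CPM in IPs or inputs and had the same sign in all 3 pairs. In each risen gene every IP lies above every input, and the fallen genes sit at 0.948 to 10.4 CPM in the IPs.

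By raw weight the top of the IP held ER membrane proteins and luminal chaperones. The 12 messages with the most CPM in IPs took 11.8%, 11.4% and 12.1% of IP counts, against 6.17%, 6.24% and 6.82% of input counts. This ranking follows message abundance and coding length as well as enrichment. STT3A and MARCHF6 led it, and CALR, SLC1A5, SLC16A1, ATP2A2, GANAB, STT3B, CANX, HSP90B1 and TMBIM6 were among the others. CANX, a membrane-bound chaperone, rose by 0.43 ± 0.12 and turned to -0.27 under library size alone. TMBIM6, a small multi-pass protein of the ER that lies in no list, rose by 1.49 ± 0.13.

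The machinery that builds membrane proteins was itself unevenly represented. Of the 9 other EMC subunits 6 rose (66.7%, against 20.0% of all genes) and 0 fell (against 14.0%). EMC3, the insertase core, had 3520, 3252 and 3183 CPM in IPs, against 233, 227 and 290 CPM in inputs (3.73 ± 0.15, adjusted p = 3.48e-21). EMC4, another multi-pass subunit, rose by 3.50 ± 0.15, and EMC7, a single-pass subunit, had 2425, 1966 and 1943 CPM in IPs, against 334, 239 and 278 CPM in inputs (2.90 ± 0.20). EMC6, a small multi-pass subunit, rose by 1.09 ± 0.20. In these 4 every IP lay above every input, as in 23.0% of all genes. EMC1 rose by 0.62 ± 0.13 and MMGT1, also called EMC5, by 0.50 ± 0.19, and these turned to -0.08 and -0.21 under library size alone. MMGT1 was not called without input 1, input 2 or IP 3 (adjusted p = 0.071 to 0.391), nor with scaling on secreted and luminal lists (0.654). EMC2 (-0.47 ± 0.36), EMC8 (-0.20 ± 0.30) and EMC9 (0.48 ± 0.52, and -0.21 under library size alone), which lie on the cytosolic side, did not pass. Library size alone called EMC2 (-1.18) and EMC8 (-0.90) lower.

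Among Sec61, signal recognition particle, signal peptidase and oligosaccharyltransferase subunits 22 of 36 rose (61.1%, against 20.0% of all genes) and 3 fell (8.33%, against 14.0%). Under library size alone 11 rose and 14 fell. The 3 that fell, SRP54 (-0.72 ± 0.17), SRP14 (-0.64 ± 0.19) and SRP68 (-0.63 ± 0.20), belong to the soluble signal recognition particle. SRP14 was not called without IP 3 (adjusted p = 0.0632), nor SRP68 without IP 2 (adjusted p = 0.115). Of 15 subunits of the multipass translocon and the GET pathway, which serves tail-anchored proteins, 8 rose (53.3%) and 1 fell (6.67%). CCDC47, a subunit of the multipass translocon, had 5557, 5149 and 6139 CPM in IPs, against 1036, 1075 and 1186 CPM in inputs (2.35 ± 0.13, adjusted p = 9.43e-18), whereas SGTA, a cytosolic chaperone of the GET pathway, stood at -0.67 ± 0.22 (adjusted p = 0.0158). SGTA was not called with DESeq2 (adjusted p = 0.0674), nor without IP 1, IP 2 or input 1 (adjusted p = 0.0556 to 0.165).

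Proteins that work together are made from separate messages, so 10 sets of partners were used to set messages of different topology side by side. Most sets are subunits of a single complex, some of them cytosolic. The signal recognition set joins channel proteins with the soluble signal recognition particle and its receptor, and the sterol-sensing set is not a single complex either. Members of all 10 sets were chosen with the earlier results of these data known. All 24 multi-pass subunits tested rose, with a median of 2.45 and a range of 0.73 to 4.98. Of the 10 single-pass subunits 5 rose and 0 fell (20.0% and 14.0% of all genes did), with a median of 0.38 and a range of 0.12 to 1.02. The 3 luminal subunits rose by 0.68 to 0.90, and of 6 cytosolic subunits 1 rose and 2 fell. In 9 of the 10 sets every multi-pass subunit chosen lay above every other subunit chosen. PIGS, a GPI transamidase subunit that stands in a multi-pass list, was not among them. It rose by 0.70 ± 0.15, below the single-pass PIGK and PIGT (1.02 and 0.92), so with PIGS that complex would not be separated.

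The oligosaccharyltransferase, which adds N-glycans, showed the widest gap among the subunits chosen. Its multi-pass catalytic subunit STT3A had 19483, 19455 and 22082 CPM in IPs, against 1519, 1603 and 1946 CPM in inputs (3.59 ± 0.13), and STT3B rose by 4.00 ± 0.14. The single-pass subunit RPN1 had 2059, 1701 and 2226 CPM in IPs, against 1319, 1293 and 1501 CPM in inputs (0.54 ± 0.13, and -0.16 under library size alone), and DDOST stood at 0.17 ± 0.13 (-0.53 under library size alone). Taken per pair, the mean change of STT3A and STT3B exceeded that of RPN1 and DDOST by 3.45 ± 0.09 (SD, 3 pairs). This difference within a library does not depend on how libraries are scaled. Other subunits of the oligosaccharyltransferase were not among those chosen, so the gap does not cover them.

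Transporters with a single-pass partner gave the same order. SLC7A5, a multi-pass amino acid exchanger, had 1802, 1682 and 1753 CPM in IPs, against 211, 237 and 260 CPM in inputs (2.89 ± 0.22). Its single-pass partner SLC3A2 had 910, 809 and 977 CPM in IPs, against 730, 726 and 762 CPM in inputs (0.28 ± 0.18, adjusted p = 0.232, and -0.42 under library size alone). SLC7A6 and SLC7A11 rose by 3.28 and 2.71, and the gap between multi-pass and single-pass subunits was 2.68 ± 0.16 per pair. For the lactate transporter SLC16A1 (1.98 ± 0.13) and its chaperone BSG (0.15 ± 0.12, and -0.55 under library size alone) the gap was 1.83 ± 0.12.

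The gap was 3.01 ± 0.48 for calcium channel pores over their largely luminal CACNA2D subunits, and 1.94 ± 0.12 for the membrane subunits of the V-ATPase over its single-pass and cytosolic ones. It was 1.97 ± 0.10 for SEC61A1 and SEC63 over SRPRA, SRP54 and SRP68, 1.64 ± 0.09 for the Hrd1 ligase complex and 1.44 ± 0.16 for gamma-secretase. For GPI transamidase, taken without PIGS, it was 0.90 ± 0.09. The sterol-sensing system was the exception, at -0.40 ± 0.21. There the precursors SREBF1 and SREBF2, transcription factors anchored by a hairpin of membrane segments, rose by 2.02 ± 0.17 and 2.15 ± 0.16, between the multi-pass proteins SCAP (2.71 ± 0.15) and INSIG1 (0.73 ± 0.19).

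**Figure D5:**
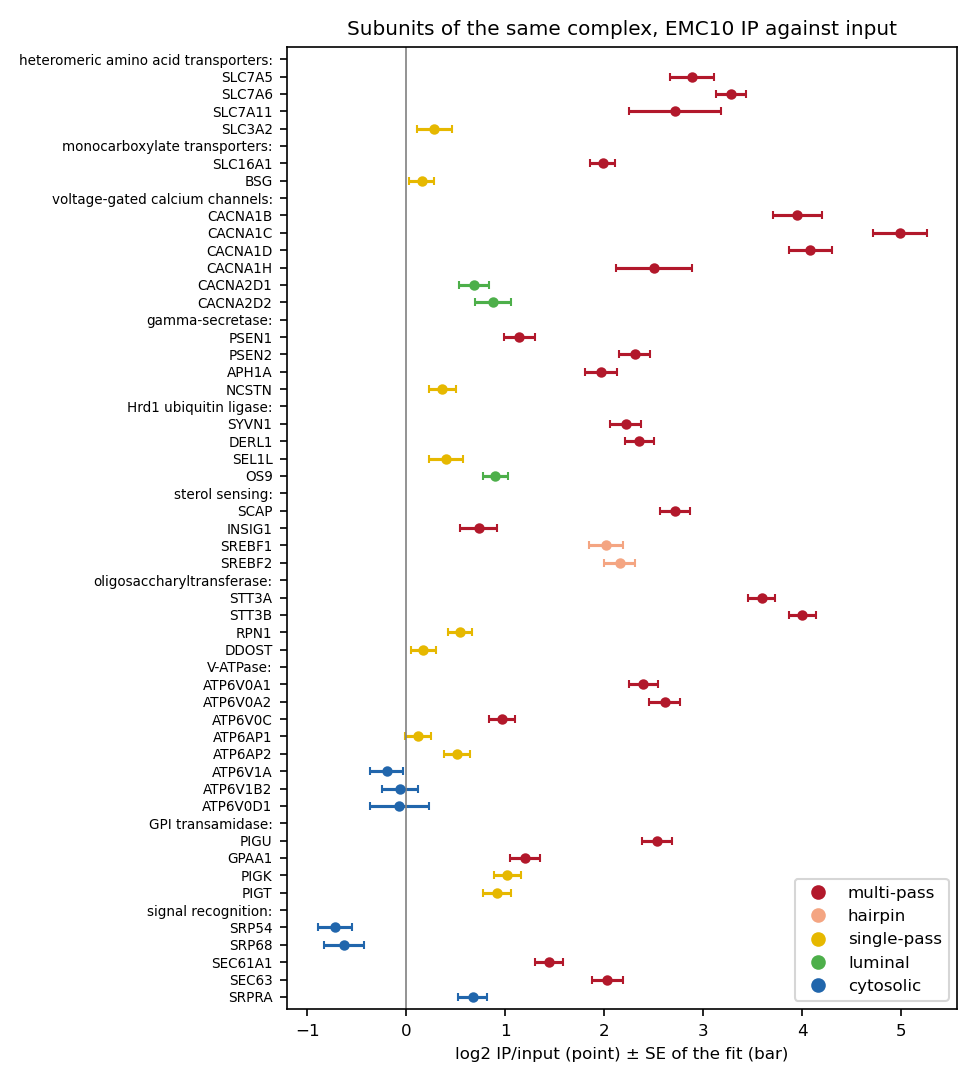
Points are log2 of IP over input with the SE of the fit for the subunits chosen in 10 sets of partners, coloured by topology. Multi-pass subunits (red) range from 0.73 to 4.98, single-pass subunits (yellow) from 0.12 to 1.02 and luminal subunits (green) from 0.68 to 0.90, and the hairpin proteins of sterol sensing (light orange) stand at 2.02 and 2.15. Under library size alone 8 of the 10 single-pass subunits (all but PIGK and PIGT) and the luminal CACNA2D1 turn negative.

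The EMC10 profile was last set against the IPs of the EMC7 and EMC6 lines, each with 2 IPs and 2 inputs of its own. The difference between the changes was tested for each gene. Against EMC7, 10 genes (0.106%) were lower with EMC10 and 0 were higher in edgeR's test, with 614 at an unadjusted p under 0.05 in either direction. DESeq2 gave 44 lower and 0 higher, library size alone 4 lower and 7 higher, and pairing by replicate number 345 lower and 64 higher. Unlike the EMC10 row, the EMC7 row stayed in the library sizes, with 247000 and 244200 CPM in EMC7 IPs. Library size alone makes no allowance for it, and its effect on these counts was not tested. Besides EMC7 itself, the bait of that line, the 10 held EMC1 and RPN1. EMC1 had 1685, 1424 and 1659 CPM in EMC10 IPs and 5132 and 5139 CPM in EMC7 IPs, whereas the inputs of the lines were close, at 950 to 1124 and 1140 and 1050 CPM. The difference of the changes was -1.61 ± 0.21 on the log2 scale (adjusted p = 3.47e-05). RPN1 had 1701 to 2226 CPM in EMC10 IPs and 4768 and 4845 CPM in EMC7 IPs (difference -1.17 ± 0.20, adjusted p = 0.00349).

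As groups, type II Golgi enzymes (median difference -0.58), lysosomal hydrolases (-0.51) and receptors with a signal peptide (-0.48) lay below the median difference of all genes, -0.04, while solute carriers (0.13) and ABC transporters (-0.12) did not stand far from it. Of the 95 type II enzymes 3 were called lower with EMC10 and 0 higher. In the comparison with EMC6 other groups lay low: the multi-pass class had a median difference of -0.31 and solute carriers of -0.42, against -0.05 for all genes, while type II enzymes stood at 0.02. Against EMC6, 6 genes (0.0634%) were lower with EMC10 and 0 were higher, with 591 at an unadjusted p under 0.05, DESeq2 gave 9 lower and 0 higher, and pairing by replicate number 170 lower and 31 higher. Apart from EMC6 itself, SLC12A2, a Na-K-Cl cotransporter, rose with EMC10 by 3.21 ± 0.14, with 6357, 6288 and 7169 CPM in EMC10 IPs, against 654, 722 and 766 CPM in inputs. In the EMC6 line it had 11770 and 12650 CPM in IPs, against 272 and 363 CPM in inputs (difference -2.06 ± 0.21, adjusted p = 3.49e-08).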

How the data were processed

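Ribosome footprints were measured in IP and input libraries of the EMC10 line (n = 3 each), beside 2 of each from the EMC7 and EMC6 lines. Per library, the authors deposited raw counts by gene symbol, without normalization. The build was hg38 and the tools named were TopHat2 2.1.0, Bowtie2 2.2.6 and cutadapt 4.1, per the submitters' processing notes. Which annotation and strand setting were used, and whether duplicates were removed, is not given in the sources used here. Reads of overlapping or antisense genes can therefore not be separated. Positions are from RefSeq's GRCh38 table, which held 18968 of the 19440 symbols.

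The 5 entries that name no gene held 2.83% to 3.13% of all counts in IPs and 4.87% to 5.15% in inputs of the EMC10 line, and were dropped. The EMC10 row was left out of library sizes, scaling and test and fitted apart. The EMC7 and EMC6 rows were kept, also in the lines that carry them as bait. Genes with enough counts (filterByExpr) in all 14 libraries were fitted together with a mean per group (edgeR 4.0.16, limma 3.58.1, R 4.3.3, TMM, robust quasi-likelihood test, Benjamini-Hochberg at 0.05). Single pairs used log2 of CPM plus 0.5. DESeq2 1.42.0 was an alternative. The steps were tested on simulated data.

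The members and lists were chosen with earlier results of these data known, so no p is given for a list. The rule named the 12 largest rises and 12 largest falls called the same way in all 3 pairs with at least 10 CPM, the 12 messages with most CPM in IPs, up to 4 members a list, members called against their list, all EMC subunits and up to 6 genes a side for each difference between baits. The text gives part of these and the partner subunits, and list members above 50 CPM with the lowest or highest change, picked after the data were seen. Some genes are not reported here.

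IP and input share a replicate or batch number in the labels and the IP was made from that input, so the numbers pair them. Deviations from the group means correlated at 0.0363, 0.0891 and 0.0698, and each library correlated best with its partner of the same number. Nothing says that the replicates were separate cultures, so p-values may measure technical spread only. Replicates differed by more than counting noise (chi-square of 1.91 to 3.04 per degree of freedom), so none was counted as a repeat of another. Comparisons by predicted membrane segments and per coding length were not run, as protein sequences were not used here.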

Additional observations from a re-analysis of the deposited data

Results flagged for a closer look

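Results given here passed a test of the difference between the change with the EMC10 bait and the change with another bait (edgeR's quasi-likelihood test, Benjamini-Hochberg over all genes). No library of the EMC10 line was singled out, since groups of 3 are not tested for stray samples.

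Against the EMC7 bait, the EMC7 message itself differed by -2.81, EMC1 by -1.61, DISP1 by -1.44, ERMP1 by -1.31 and SELENON by -1.20 on the log2 scale, each lower with EMC10. ERMP1, an ER metallopeptidase with several membrane segments, had 653, 671 and 795 CPM in EMC10 IPs, against 220, 268 and 265 CPM in inputs, and 1827 and 1879 CPM in EMC7 IPs, against 272 and 261 CPM in inputs. SELENON, a selenoprotein of the ER, was not called without any 1 of EMC10 IPs 1, 2 and 3 and EMC10 inputs 2 and 3 (adjusted p = 0.101 to 0.259), nor under library size alone (0.136) or with scaling on secreted and luminal lists (0.131). The difference of the EMC7 message was not called with scaling on secreted and luminal lists (adjusted p = 0.0579), and DISP1, a multi-pass protein that releases Hedgehog ligands, was not called without EMC10 input 3 (adjusted p = 0.0624), under library size alone (0.0781) or with that scaling (0.131).

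Against the EMC6 bait, the EMC6 message itself differed by -6.44, ASB13 by -5.14, MAP4 by -2.30, SLC12A2 by -2.06, LSM4 by -1.77 and CYB561D2 by -1.73. LSM4, a component of RNA-processing rings, had 55.0, 70.2 and 64.9 CPM in EMC10 IPs, against 62.7, 62.5 and 72.5 CPM in inputs. In the EMC6 line it had 80820 and 103400 CPM in IPs, against 23960 and 31850 CPM in inputs. MAP4, a microtubule-binding protein, had 40.6 to 69.0 CPM in EMC10 IPs, against 90.9 to 99.4 CPM in inputs, and 34470 and 46260 CPM in EMC6 IPs, against 11000 and 17230 CPM in inputs. For both genes the EMC6 line stood apart in input as well as in IP. ASB13, with an ankyrin repeat fold, had 1.01 to 3.79 CPM in EMC10 IPs, against 1.99 to 3.50 CPM in inputs, and 91.2 and 77.7 CPM in EMC6 IPs, against 2.69 and 2.18 CPM in inputs. CYB561D2, a multi-pass cytochrome, rose with both baits, with 51.1, 60.7 and 85.2 CPM in EMC10 IPs, against 32.2, 32.4 and 39.8 CPM in inputs.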

How the results depend on the processing

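In a fit with a replicate block for each IP and its input, 2045 genes rose and 1786 fell, and the differences from the EMC7 and EMC6 baits gave 64 higher and 345 lower and 31 higher and 170 lower. Library size alone gave 1120 rises and 5662 falls (7 higher and 4 lower against EMC7), DESeq2 743 falls (44 lower against EMC7), scaling on secreted and luminal lists 3456 falls (14 higher and 3 lower against EMC7), and a test against a fold of 1.5 gave 107 falls. Without a filter on low counts, 34 genes were lower than with EMC7 and 1 was higher than with EMC6. That setting, which adds thinly counted genes, moved the medians of the multi-pass, cytosolic and nuclear, and ER machinery classes to 1.91, -0.32 and 0.66.

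Leaving out each of the 6 libraries in turn gave 1676 to 1834 rises and 882 to 1103 falls, and 4 to 8 genes lower than with EMC7, fewest without input 3. It gave medians of 2.14 to 2.25 for the multi-pass, -0.026 to 0.096 for the mitochondrial, -0.31 to -0.27 for the cytosolic and nuclear and 0.63 to 0.80 for the ER machinery class.

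With the EMC10 row kept in the denominator, the IP shares were 22.1% for multi-pass, 3.71% for type I, 0.712% for type II, 8.92% for secreted and luminal, 0.246% for tail-anchored, 0.447% for mitochondrial, 4.77% for cytosolic and nuclear, 29.4% for ER machinery (which then holds EMC10) and 29.7% for messages in no list.

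Over 166 genes examined one by one, 2116 alternative values kept direction and call, 26 changed sign without a call on either side, 113 lost the call, 35 gained one and 25 changed sign with a call on 1 side or both. All 25 came from scaling. Library size alone turned CANX (-0.27), PTPRF (-0.10), APP (-0.69), BSG (-0.55), LAMB1 (-0.026), ADAMTS1 (-0.47), GLA (-0.37), UQCRH (-0.077), NUP155 (-0.24), EMC1 (-0.078), MMGT1 (-0.21), SLC3A2 (-0.42), CACNA2D1 (-0.018), NCSTN (-0.34), RPN1 (-0.16), DDOST (-0.53), ATP6AP1 (-0.58), ATP6AP2 (-0.19) and SRPRA (-0.040). Scaling on secreted and luminal lists turned APP (-0.37), BSG (-0.23), GLA (-0.043), NCSTN (-0.024), DDOST (-0.21) and ATP6AP1 (-0.26). Depth limits precision, with a median SE of 0.587 for genes under 5 CPM and of 0.135 at 1000 CPM or more. Of these genes 3.24% and 68.2% rose, and their median changes also differed, at -0.35 and 0.98. Comparisons by predicted membrane segments and shares per coding length were not run.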

Other observations

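Of the 501 genes that rose by more than 2 on the log2 scale, 163 lay in no list, and 27 of these carry a TMEM symbol. Of all 149 tested TMEM symbols 114 rose and 0 fell (76.5%, against 20.0% of all genes), with a median 1.44 above all genes. TMEM115, a Golgi protein (chromosome 3, 50354750 to 50359521), had 2580, 2545 and 2582 CPM in IPs, against 137, 145 and 147 CPM in inputs (4.17 ± 0.15, adjusted p = 1.82e-22). WFS1, an ER membrane protein mutated in Wolfram syndrome, had 1268, 1104 and 1150 CPM in IPs, against 65.7, 58.8 and 64.5 CPM in inputs (4.22 ± 0.15). In both genes the IPs were close together and far above the inputs.

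Several families outside the lists rose as a whole. They were picked after their values were seen, so their counts are a description only. All 6 adenylyl cyclases tested, which make cyclic AMP, rose within a narrow range of 2.81 to 2.97. ADCY3 had 1069, 1226 and 1256 CPM in IPs, against 142, 162 and 173 CPM in inputs. Of 15 MFSD transporters 14 rose and 0 fell, with a median of 2.46. All 4 pecanex genes (2.63 to 3.84), all 4 XK-related scramblase genes (2.05 to 4.06) and both lipase maturation factors (3.81 ± 0.26 for LMF1 and 3.83 ± 0.14 for LMF2) rose. LMF2 had 4935, 4717 and 5084 CPM in IPs, against 322, 336 and 380 CPM in inputs.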
